A study of Mus musculus with 4 samples.

Results

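AP-1 is a family of transcription factors that bind DNA as pairs of basic leucine zipper proteins, and 10 of its genes were followed here in CD4 T cells of mouse spleen that the labels call naive: Fos, Fosb, Fosl1 and Fosl2 of the FOS group, Jun, Junb and Jund of the JUN group, and the relatives Batf, Atf3 and Maff. They are 10 of the 19937 genes that had an annotated probe set of their own, were chosen by symbol with the contrast between the genotypes already known, and each had a single probe set. Their changes are therefore given as a description with no test. RNA was hybridised to 4 arrays, 2 of wild-type (WT) mice and 2 of IfitmF-/- mice, which lack the whole family of interferon-inducible transmembrane genes and are labelled Ifitm-/-. Both groups were adults of 6 to 8 weeks, and per the study the deficient mice were on a C57BL/6 background, cells of 2 mice were pooled per array and each replicate was a separate purification. The CD4 T cells were enriched by removing other splenocytes with antibodies after red cell lysis. The paper calls the cells of these arrays purified and resting CD4 T cells, and describes no sorting of naive cells for them. Whether all of them were naive was not tested. All values are RMA intensities, and changes are IfitmF-/- minus WT on the log2 scale.

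FOS and JUN proteins are made within minutes when a T cell receptor, a growth factor or stress activates the cell, and a FOS protein must join a JUN protein to hold DNA well. JUN proteins can also pair with themselves. In T cells AP-1 acts with NFAT on cytokine genes such as Il2, and BATF joins JUN proteins and IRF4 on shared sites. ATF3 is a stress-induced member that often represses, and MAFF is a small MAF protein with no activation domain of its own.

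Of the 10 genes, Fosb, Fosl2, Atf3 and Maff were far lower in IfitmF-/- cells, by 5.54-fold to 7.78-fold, while the other 6 lay within 1.5-fold of WT. Over all genes 225, or 1.13%, were beyond a 2-fold fall. All 10 changes were below 0, as were 53.7% of all genes. On 8 of the 10 probe sets both IfitmF-/- arrays lay below both WT arrays, against 30.8% of all genes, and on 0 probe sets above (27.9% of all genes). With limma over all probe sets and an adjusted p under 0.05, 4 of the 10 were called lower and 0 higher, where the background was 3.61% of genes lower and 4.96% higher. Of all 34760 probe sets 2930, or 8.43%, were called. The 4 genes, Fosb, Fosl2, Atf3 and Maff, also passed the further limits of a fold over 2 and a range of 250 intensity units, as 0.853% of all genes did in this direction. The counts are a description, since the genes were proposed with this contrast in view. With the replicate number as a block, 0 of the 10 genes and 0 genes of any list named here were called. The same held with the methods' own test, adjusted by Benjamini-Hochberg. In these settings 6 of the 10 had an unadjusted p under 0.05, as did 8016 and 6811 of all 34760 probe sets. Leaving out any 1 of the 4 arrays leaves 1 array for a genotype. The changes of Fosb, Fosl2, Atf3 and Maff then lay between -3.25 and -2.39.

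**Figure D1:**
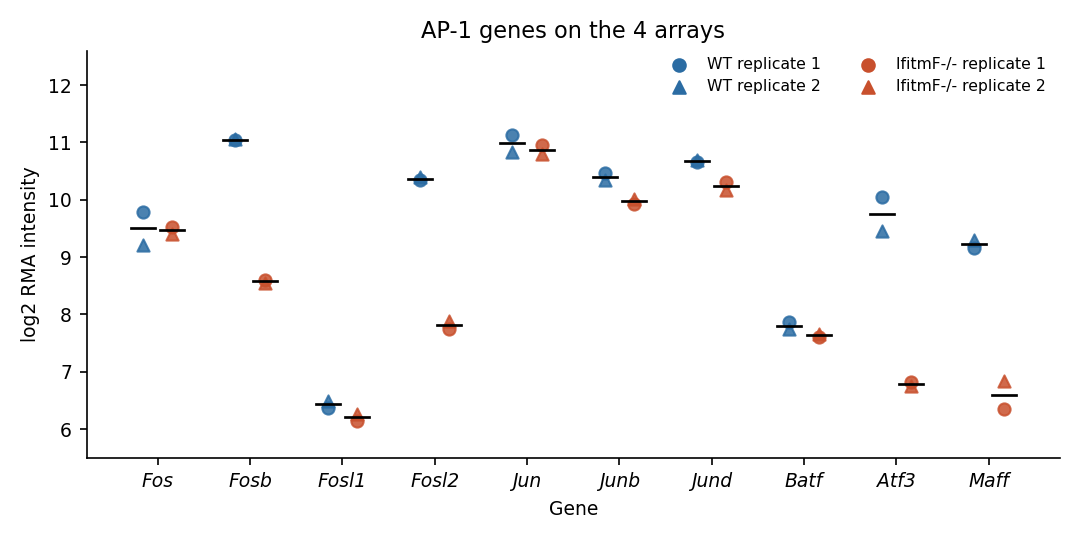
log2 RMA intensity (y axis) of the 10 AP-1 genes (x axis) on each array; circles are replicate 1, triangles replicate 2, blue WT, orange IfitmF-/-, and black bars the mean of each genotype. Fosb, Fosl2, Atf3 and Maff are parted by wide gaps, Fos and Jun overlap, and heights are not comparable between genes.

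The upstream sequences of the genes that part most, with Fos and Jun beside them, are printed so that some of the motifs named next can be seen in place. They come from the RefSeq annotation of GRCm38.p6, which held 9 of the 10 genes, each as a window from 250 bases before an annotated start to 50 after it. The stretches run 5' to 3' on the strand of the gene and end at the base before the start, except for Fosb, where the part inside a longer annotated transcript was left off, and Maff, where 30 bases around one site before the second of its 3 starts are given. Capitals mark matches on either strand to the NF-kB, MEF2 and CArG box motifs, to TGACNTCA (a CRE-type site, bound by ATF, CREB and JUN proteins), to its core TGACG, to TGANTCA (the classical AP-1 site) and to TATAAA. They are, in order, chr7:19310119-19310265 (minus strand), chr5:32136252-32136471 (plus), chr1:191183334-191183553 (minus), chr15:79347480-79347509 (plus), chr12:85473670-85473889 (plus) and chr4:95052223-95052442 (minus).
Fosb: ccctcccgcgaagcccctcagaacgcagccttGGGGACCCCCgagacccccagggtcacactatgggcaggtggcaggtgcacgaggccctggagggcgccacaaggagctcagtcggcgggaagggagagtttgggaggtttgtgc
Fosl2: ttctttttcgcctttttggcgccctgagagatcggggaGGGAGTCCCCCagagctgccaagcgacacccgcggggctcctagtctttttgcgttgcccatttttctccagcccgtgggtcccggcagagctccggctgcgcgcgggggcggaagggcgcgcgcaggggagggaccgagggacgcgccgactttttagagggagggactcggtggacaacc
Atf3: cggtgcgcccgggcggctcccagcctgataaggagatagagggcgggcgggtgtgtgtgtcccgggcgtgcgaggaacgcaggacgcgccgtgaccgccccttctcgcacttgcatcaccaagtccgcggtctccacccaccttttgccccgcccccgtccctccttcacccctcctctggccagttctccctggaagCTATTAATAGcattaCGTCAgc
Maff: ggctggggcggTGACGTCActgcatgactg
Fos: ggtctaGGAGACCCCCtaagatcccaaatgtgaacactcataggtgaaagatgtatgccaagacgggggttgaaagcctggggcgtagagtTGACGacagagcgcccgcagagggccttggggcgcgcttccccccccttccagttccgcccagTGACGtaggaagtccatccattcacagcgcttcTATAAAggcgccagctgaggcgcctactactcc
Jun: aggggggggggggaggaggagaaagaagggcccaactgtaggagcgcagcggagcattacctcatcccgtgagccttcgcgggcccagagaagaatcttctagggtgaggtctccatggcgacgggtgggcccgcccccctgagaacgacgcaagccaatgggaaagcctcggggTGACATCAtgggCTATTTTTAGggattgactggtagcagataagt

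An NF-kB match stood 188 bases before the start of Fosb and 214 before that of Fos, and 2 overlapping ones, 182 and 181 bases before the start, preceded Fosl2. Maff had one 70 bases before the third of its starts. So 4 of the 9 genes held this motif in some window, against 8.46% of the 32851 windows in the table. CRE-type sites preceded Jun (45 bases) and both later starts of Maff (29 and 45 bases), and 8.83% of all windows held one. The core TGACG, which CRE-type sites may include, was found for Fos, Fosb, Junb, Batf, Atf3 and Maff, and in 20.8% of all windows. At Fosb the core lies 60 bases before the start, in the part not printed. The matches of Junb, Batf and the third start of Maff are not printed either. MEF2 sites, in 0.557% of windows, preceded Jun (33 bases) and Atf3 (22 bases). No window of these genes held TGANTCA or a CArG box, present in 7.81% and 1.63% of windows. Bases more than 250 before a start were not searched. A TATAAA stood 33 bases before Fos, and one began at the start base of Junb (13.6% of windows). The GC box GGGCGG (35.7% of windows) was found for 7 of the 9. Jund matched none of these motifs. NF-kB matches thus occurred both in genes that were far lower (Fosb, Fosl2, Maff) and in Fos, whose genotypes overlapped. A match is only a run of letters, and genes with several annotated starts had more windows to match in.

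**Figure D2:**
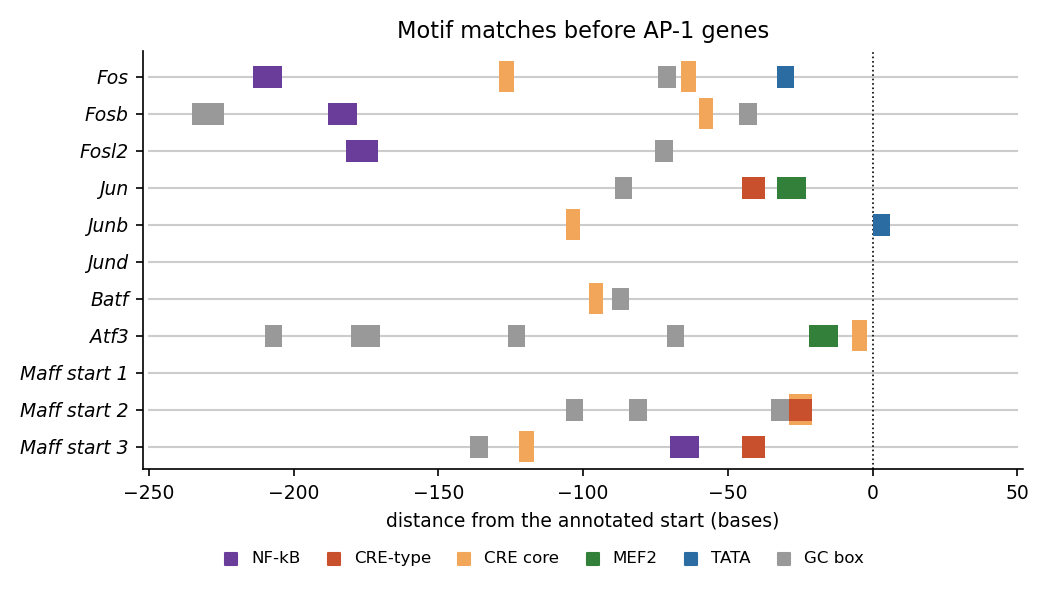
Motif matches (coloured blocks) along the windows before 9 AP-1 genes, by distance from the annotated start in bases (x axis); rows are genes, with 3 starts for Maff, and the dotted line is the start. NF-kB blocks stand at 188 bases for Fosb and 214 for Fos, and the rows of Jund and the first start of Maff are empty.

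The FOS group divided into genes that were much lower and genes that were not. Fosb, which makes a FOS protein and a short form without the activating end, was at 2099 and 2142 intensity units in WT and at 390 and 376 in IfitmF-/- cells. The replicates of a genotype lay close together and the genotypes far apart, a change of -2.47, or 5.54-fold lower (log2 means 11.05 ± 0.02 and 8.58 ± 0.04, SD, n = 2).

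Fosl2, which encodes FRA2, a FOS protein known for slower and longer expression than Fos, was at 1306 and 1343 in WT and 216 and 237 in IfitmF-/- cells. Its change of -2.55, or 5.86-fold lower, was the larger of the pair (10.37 ± 0.03 and 7.82 ± 0.09, SD, n = 2). Both genes had nearly the same profile over the arrays: their mean-centred log2 values were 0.15 apart, the smallest distance among all pairs of the 10 genes.

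Fos itself, the best known immediate early gene of the family, was at 888 and 595 in WT and 735 and 681 in IfitmF-/- cells. Both IfitmF-/- values lay between the WT values, and the change was -0.039 (9.50 ± 0.41 and 9.47 ± 0.08, SD, n = 2). The WT replicates differed by 0.58 log2 units, more than in 97.8% of genes, and the change was far inside that difference. The change was 0.25 without WT replicate 1 and -0.33 without WT replicate 2.

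Fosl1, which encodes FRA1, was at 83.2 and 89.7 in WT and 70.7 and 77.3 in IfitmF-/- cells. The genotypes did not overlap, but the gap was 0.11 log2 units and the change -0.23. On each array 48.1% to 53.4% of all probe sets were dimmer, so Fosl1 lay near the middle of the range, where a fold may be understated.

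The JUN genes, partners that all FOS proteins need, moved little. Jun was at 2240 and 1830 in WT and 1977 and 1782 in IfitmF-/- cells. These ranges overlapped, with a change of -0.11 that became 0.036 without WT replicate 1.

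Junb, whose protein is a weaker activator than JUN and takes part in helper T cell differentiation, was at 1411 and 1299 in WT and 975 and 1034 in IfitmF-/- cells. Jund, the most evenly expressed JUN gene in many tissues, was at 1615 and 1651 in WT and 1265 and 1155 in IfitmF-/- cells. For both, each IfitmF-/- array lay below each WT array, with changes of -0.43 and 1.35-fold lower levels. Neither was called lower in the main fit. Both joined the 4 called genes, to make 6, when the prior variance followed intensity or dim probe sets were left out. They also did so when only single-gene probe sets were tested or when these were averaged per gene. Calls over all probe sets rose too, from 2930 of 34760 to 3678 with that prior, and to 4032 of fewer probe sets without the dim ones. Of the 21640 single-gene probe sets 3037 were called, and no such count was made for averaging.

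The relatives parted in the same manner. Atf3 was at 1056 and 704 in WT and 113 and 108 in IfitmF-/- cells. The WT replicates were 0.58 log2 units apart, as for Fos, and again WT replicate 1 was the higher, yet the nearest arrays of the genotypes were 2.63 log2 units apart. The change of -2.96 (7.78-fold lower; 9.75 ± 0.41 and 6.79 ± 0.05, SD, n = 2) was the largest of the 10, and 4 of the 19937 genes had a larger fall. The change was -3.25 to -2.67 when single arrays were left out.

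Maff was at 574 and 632 in WT and 82.1 and 115 in IfitmF-/- cells, a change of -2.63, or 6.20-fold lower (9.24 ± 0.10 and 6.60 ± 0.34, SD, n = 2). Here the IfitmF-/- replicates were the wider pair, by 0.49 log2 units, and still lay 2.32 log2 units below the nearest WT array. On the IfitmF-/- arrays 51.9% to 59.1% of probe sets were dimmer than Maff or Atf3, so the folds of both may be understated.

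Batf, which helper T cells need to become Th17 and follicular helper cells, was at 232 and 214 in WT and 195 and 203 in IfitmF-/- cells. Its change was -0.17 and the genotypes were 0.08 log2 units apart at their nearest arrays. Batf and Fos lie on the same chromosome, 12, with Jdp2 between them. Jdp2, which represses AP-1 sites, was dim, at 86.2 and 80.1 in WT and 67.0 and 68.3 in IfitmF-/- cells (-0.30, adjusted p = 0.117). The genes that were far lower are scattered, on chromosomes 7 (Fosb), 5 (Fosl2), 1 (Atf3) and 15 (Maff).

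**Figure D3:**
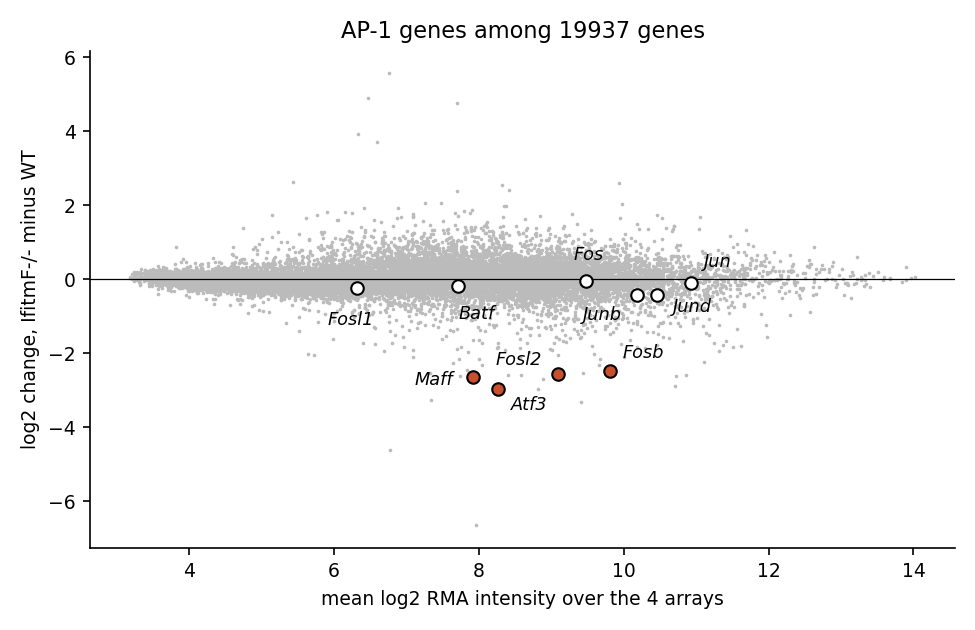
Each of 19937 genes (grey) is placed by its average log2 level on the 4 arrays (x axis) and by its log2 change between genotypes (y axis); circles are the 10 AP-1 genes, filled orange where the adjusted p was under 0.05. Fosb, Fosl2, Atf3 and Maff lie between -2.47 and -2.96, below nearly all genes, and the other 6 lie between -0.43 and -0.039.

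The genes outside the 10 with the most similar pattern were sought by the distance between mean-centred log2 values over the 4 arrays, where 2 arrays of each genotype make any gene with a like change close. Nearest to Fosl2 were Dusp10, a phosphatase gene of the JNK and p38 kinases (distance 0.04, change -2.57), Rgs16 (0.11, -2.58) and Eif2ak3 (0.12, -2.52). Outside the 10, the same 3 genes were nearest to Fosb. Nearest to Maff was Dusp16, another such phosphatase gene (0.08, -2.60), and nearest to Atf3 was Zbtb10 at 0.43. Jun, Junb and Batf had neighbours within 0.02.

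Other basic leucine zipper genes, listed by family but with earlier results of these data known, moved in both directions. Of 11 measured MAF, BACH and NFE2 genes, 2 were called lower and 1 higher (8.57% of all genes were called in either direction). Mafk, a small MAF gene like Maff, was at 554 and 566 in WT and 352 and 323 in IfitmF-/- cells (-0.73, adjusted p = 0.0239), and Bach1, a repressor that pairs with small MAF proteins, changed by -0.78 (adjusted p = 0.0203). Mafg, another small MAF gene, had a change of -0.61 and missed the threshold (adjusted p = 0.0589). Nfe2l2, which encodes NRF2, the antioxidant factor that also pairs with small MAF proteins, rose by 1.44 (363 and 337 in WT, 936 and 964 in IfitmF-/- cells; adjusted p = 0.0131).

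Of 14 ATF and CREB genes 2 rose and 0 fell by limma, with 6 lower and 3 higher at an unadjusted p under 0.05, as were 2292 and 2854 of all 19937 genes. Creb1, which binds CRE sites, rose by 0.63 (adjusted p = 0.0322) and Atf7 by 0.61 (adjusted p = 0.0365), while Crem (-0.72, adjusted p = 0.0544) and Creb3l2 (-0.51, adjusted p = 0.0521) missed the threshold. Of 10 genes listed as C/EBP and PAR factors 2 were called lower, Nfil3 (-1.71, adjusted p = 0.0161) and Xbp1 (-1.58, adjusted p = 0.0115), and 0 higher. Xbp1 is of neither family and was only listed with them. Cebpb (-0.56, adjusted p = 0.0737) and Dbp, a PAR gene (0.60, adjusted p = 0.0904), missed the threshold. Of Batf2, Batf3 and Jdp2 limma called 0, with Jdp2 alone at an unadjusted p under 0.05. The median changes of these 4 lists were -0.12, -0.18, -0.006 and -0.16, beside -0.43 for the 10 genes and -0.020 for all.

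Genes that act on AP-1 were examined next. MAP kinases phosphorylate JUN and ATF proteins and drive FOS transcription, and of 16 measured kinase genes 1 fell, Map2k3 (-0.74, adjusted p = 0.0312), an activator of p38. That is 6.25% of the list, below the 8.57% of all genes called. Map3k8 had a change of -0.72 (adjusted p = 0.0547) and Mapk8, which encodes JNK1, of -0.35 (adjusted p = 0.088). Of 10 genes for factors on Fos and Jun promoters, Mef2d fell by 0.84 (adjusted p = 0.0208) and Creb1, listed here too, rose. Stat3 had a change of -0.65 (adjusted p = 0.0564) and Mef2a of -0.30 (adjusted p = 0.141). Mef2c had the largest change of the list, -1.26, and was not called (adjusted p = 0.166), with WT arrays far apart at 290 and 125 and IfitmF-/- arrays at 69.8 and 90.3. Mef2a, Mef2c and Mef2d encode MEF2 proteins, for which Jun and Atf3 held the sites shown above.

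Among 8 partners of AP-1, Irf4, which binds DNA with BATF and JUN proteins, was at 954 and 653 in WT and 153 and 219 in IfitmF-/- cells, a change of -2.11 (adjusted p = 0.0264). Ppp3cb, a catalytic chain of calcineurin, the phosphatase that frees NFAT, rose by 0.60 (adjusted p = 0.0272), and Nfatc1 had a change of -0.32 (adjusted p = 0.116). Of 7 genes that modify or degrade JUN and FOS proteins, Trib1 fell by 1.05 (adjusted p = 0.0141) and Det1 rose by 0.61 (adjusted p = 0.0484). Both encode adaptors of the COP1 ubiquitin ligase.

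Of 26 textbook AP-1 target genes 7 fell and 1 rose, with 30.8% called beside 8.57% of all genes, and a median change of -0.19. Plaur, the urokinase receptor gene, was at 556 and 522 in WT and 115 and 129 in IfitmF-/- cells, a change of -2.14 (adjusted p = 0.0112). The cytokine genes Il10 (-1.75, adjusted p = 0.0215) and Ifng (-0.65, adjusted p = 0.0273) fell, as did the receptor gene Ctla4 (-1.47, adjusted p = 0.0144). Cd69, Fasl and Cd44 complete the 7, with changes of -0.97, -0.88 and -0.79, and Il2ra, a chain of the IL-2 receptor, rose by 0.51 (adjusted p = 0.0379). No set test was made, and the list was chosen with earlier results of these data known. When dim probe sets were left out, 9 target genes were called, and calls over all remaining probe sets rose from 2930 to 4032. The part of expression level in the share called was not tested. Many of the target genes answer to other factors as well.

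**Figure D4:**
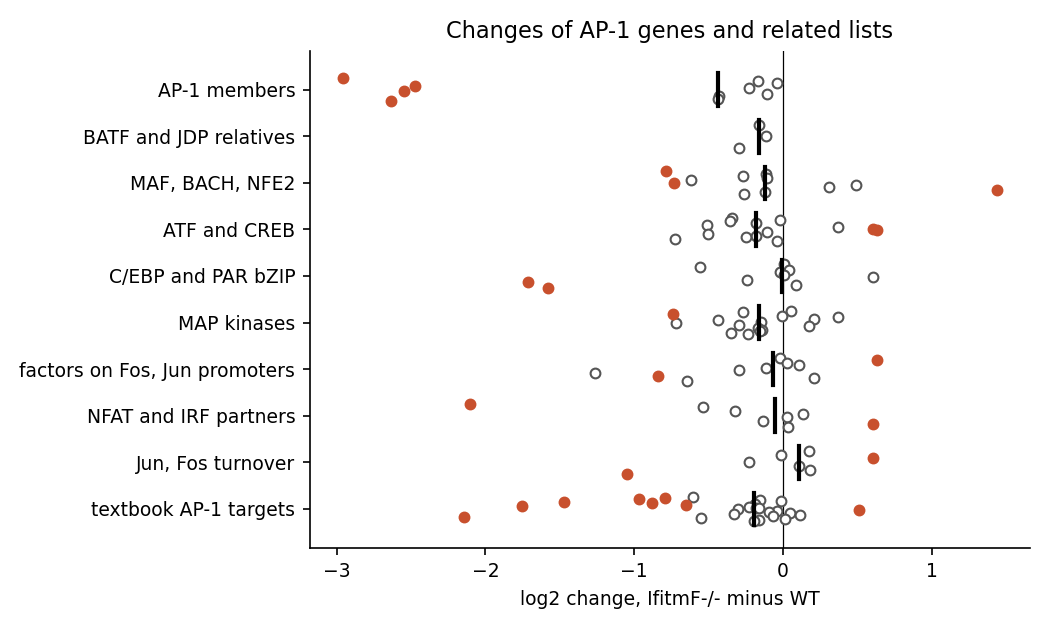
Change of each gene (x axis, log2, IfitmF-/- minus WT) in the AP-1 genes and 9 related lists (rows); filled circles had an adjusted p under 0.05 and black bars are medians. The 4 AP-1 genes far to the left lie between -2.96 and -2.47, and the other lists spread to both sides of 0, with Nfe2l2 at 1.44, except the BATF and JDP relatives, which lie between -0.30 and -0.11.

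Genes grouped by promoter motif, with the 10 left out, were compared with all 15604 measured genes that had a window, of which 3.56% were called lower and 5.13% higher. Of 1262 genes with TGANTCA, 3.09% were called lower and 3.41% higher, and the median change was -0.019, beside -0.016 for all. Of 1379 genes with a CRE-type site, 4.93% were called lower and 4.64% higher, and of 1709 genes with an NF-kB match 5.27% and 5.03%. The core TGACG, found for 6 of the 9 AP-1 genes, was held by 4363 others, of which 6.19% were called lower and 6.05% higher, the highest shares among the motifs in both directions. GC box genes, 8258 in all, gave 5.16% and 5.91%. No test was made of these shares, and the part of base composition and expression level in them was not tested.

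The arrays differed in ways that touch these results. Xist, an RNA of female cells, was at 2561 and 2440 in WT and 29.0 and 21.6 in IfitmF-/- cells, so the sex of the mice and the genotype cannot be told apart in any comparison given here. Ifitm3 was at 612 and 481 in WT and 24.4 and 20.5 in IfitmF-/- cells, as labelled. CD4 T cell markers were bright on all arrays, with Cd4 and Cd3e at 2781 to 4545. The 12 markers summed to 30842 and 31388 on the WT arrays and to 34685 and 34625 on the others, and limma called 4 of them higher and 1, Cd28, lower. In bulk RNA, fewer cells of a type and less RNA per cell cannot be told apart.

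Of the markers of other cells, those of plasma cells parted the genotypes the way the AP-1 genes did. All 5 were lower on both IfitmF-/- arrays, as were 30.8% of all genes, with sums of 3844 and 2606 in WT against 1974 and 1840. Of these sums Jchain alone made 3110 and 2048 against 1609 and 1436. By limma 0 of the 5 were called. All 5 were lower at an unadjusted p under 0.05, as were 2292 of all 19937 genes. B cell markers, 13 genes, summed to 6405 and 16687 in WT, the higher on replicate 1, and 4872 and 7103 in IfitmF-/- cells, with Ighm alone called lower. Erythroid sums (4 genes) were 2623 and 3660 in WT against 5853 and 5323, and platelet sums (4 genes) 3563 and 2320 against 4556 and 10368, with 0 called in either list at an adjusted p under 0.05 and 1 in each at an unadjusted one. NK markers (9 genes) went both ways, with a median change of 0.18. Nkg7 and Eomes were called lower. Higher without overlap were 4 others, Klrd1 (1.11) among them, as were 27.9% of all genes, and 0 were called higher. NK sums were 3280 and 2649 against 2603 and 2411, of which Nkg7 alone made 1635 and 1380 against 765 and 861. Of 10 neutrophil markers 5 were higher without overlap, as were 27.9% of all genes, and limma called 1, Retnlg, higher (1.83, adjusted p = 0.0136). The 10 markers were dim on average, with mean log2 levels of 5.57 and 5.76 in WT against 5.80 and 6.03, although their sums overlapped. All genes averaged 6.73 to 6.74 on the 4 arrays. Sums of CD8 T and myeloid markers overlapped between the genotypes. No marker was at 0, since RMA gives every probe set a positive value. WT replicate 1, high in B cell markers, was also the higher WT array for Atf3, Fos, Jun, Junb and Batf. The others, Fosb, Fosl1, Fosl2, Jund and Maff, were higher on WT replicate 2. Without WT replicate 1 the changes of Fosb, Fosl2, Atf3 and Maff were -2.48, -2.57, -2.67 and -2.70. The part of these other cells in the AP-1 values was not tested.

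**Figure D5:**
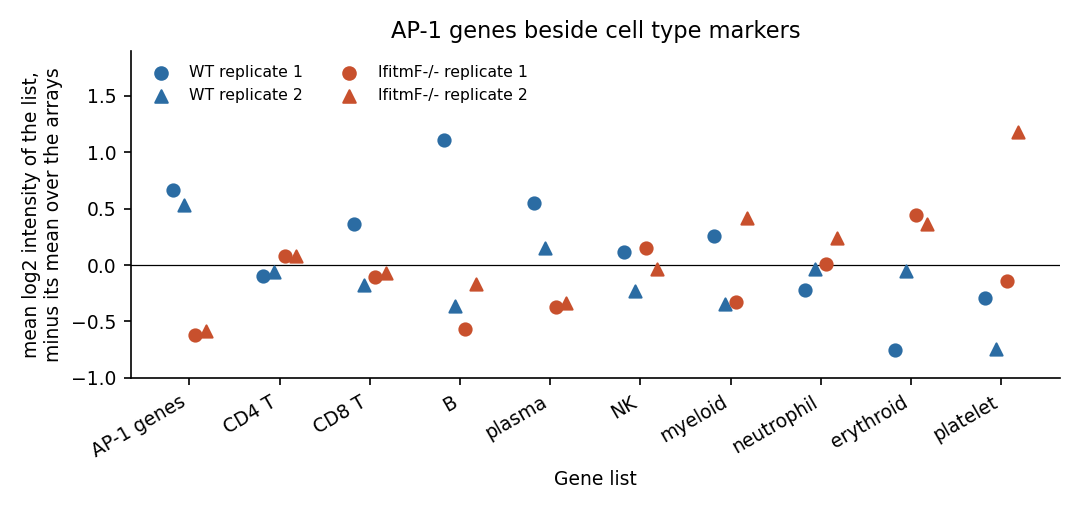
Mean log2 intensity of the AP-1 genes and of 9 marker lists on each array, minus the mean of the list over the 4 arrays (y axis); circles are replicate 1, triangles replicate 2, blue WT, orange IfitmF-/-. The AP-1 and plasma cell lists are lower on both IfitmF-/- arrays, and B cell markers stand highest on WT replicate 1.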

How the data were processed

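Total RNA of purified splenic CD4 T cells was measured on 4 Affymetrix Mouse Gene 1.0 ST arrays. The authors deposited RMA intensities, not on a log scale, and the submitters' processing notes name RMA and affy; no version is named in the sources used here. RMA sets the arrays to 1 distribution, so changes are relative to the whole array. After conversion to log2, limma (version 3.58.1, R version 4.3.3) was fitted to the 34760 probe sets by lmFit and eBayes with no covariate, leaving 2 residual degrees of freedom, with Benjamini-Hochberg adjustment and a threshold of 0.05. The number of arrays limits the precision. In the platform's annotation 21640 probe sets had a single gene, 1321 had more and 11799 had none. Symbols were renewed by gene ID from GRCm38.p6, and the brightest probe set on average stood for its gene. The members and lists were chosen with earlier results of these data known. Named genes were all 10 members, up to 4 genes of smallest p per list, the nearest profiles, abundant markers and the label checks, while Cd69, Fasl, Cd44, Il2ra, Cd28, Ighm, Mef2c, Nkg7, Eomes, Klrd1 and Retnlg were named after their values were seen. Listed genes without a probe set of their own were not used here. The limma step was tested on simulated data. Alternatives were the eBayes prior, the normalization, filters, the choice of probe set and the replicate block. Others were an ordinary t-test, a pseudocount of 16 and leaving out each array.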

Additional observations from a re-analysis of the deposited data

How the results depend on the processing

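Leaving out any single array left 0 calls in limma among all probe sets, the 10 AP-1 genes and every list (range 0 to 0), with 6062 to 9107 probe sets and 6 of the 10 genes (Fosb, Fosl2, Atf3, Maff, Junb and Jund) at an unadjusted p under 0.05. The number of the 10 genes without overlap was 8 to 10 when arrays were left out, 1 of them, Fos, higher in IfitmF-/- cells without WT replicate 1. With 1 array facing 2, any gene overlaps less often, and the share of all genes was not computed for these settings. The replicate block gave 0 calls for probe sets, the 10 genes and all lists, with 8016 probe sets and the same 6 genes at an unadjusted p under 0.05. Deviations of same-numbered arrays correlated at -0.12. With 2 arrays per genotype this cannot settle whether the numbers pair the samples. The crossed pairing, chosen after seeing the data, gave 975 probe sets, 4 of the 10 genes, 4 target genes, 1 each of the MAF, partner and turnover lists, and 0 of the ATF and CREB, kinase and promoter factor lists. The ordinary t-test after Benjamini-Hochberg called 4 probe sets and 0 of the 10 genes and of every list. By that test 6811 probe sets and the same 6 genes were at an unadjusted p under 0.05. The further limits of 2-fold and 250 units left 403 probe sets, 4 of the 10 genes, 2 targets, 1 MAF and 1 partner gene, and 0 ATF and CREB, kinase, promoter factor and turnover genes. With the trend prior, single-gene probe sets, averaged probe sets or renewed quantile normalization, 4 ATF and CREB genes and 2 kinases were called. Without dim probe sets these were 4 and 3. Over all probe sets the calls were 2930 in the main fit, 3678 with the trend prior and 2963 with renewed quantile normalization. They were 3037 among single-gene probe sets and 4032 without dim ones. Renewed quantile normalization left 1 turnover gene. Over the 8 alternatives run on them, the changes of Fosb, Fosl2, Atf3 and Maff kept their sign and lay between -3.25 and -2.39. In each alternative fit the 10 genes gave 0, 4 or 6 calls. The 2 arrays per genotype limit what can be said of small changes such as those of Fos, Jun, Fosl1 and Batf.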
